A study of Drosophila melanogaster with 36 samples.

Results

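The glycolysis enzyme genes of Drosophila melanogaster were followed in whole embryos of 9 isogenic lines at 5 h and 8 h. The 10 listed genes were Pgi, Pfk, Ald1, Tpi, Gapdh1, Gapdh2, Pgk, Pglym78, Eno and Pyk, and every probe set that the array's annotation pairs with one of them alone was taken. Of these, 8 genes had a probe set, out of 11982 genes so named on the array, and Ald1 had a pair of them, so that 9 probe sets were read. No probe set in the annotation used was paired with Gapdh2 or Pyk alone, and neither gene is described here.

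Glycolysis splits glucose into pyruvate and yields ATP without oxygen. In its upper reactions Pgi (phosphoglucose isomerase) turns glucose phosphate into fructose phosphate, Pfk (phosphofructokinase) commits that sugar to the pathway, and Ald1 (aldolase) cleaves it into triose phosphates, which Tpi (triose phosphate isomerase) interconverts. In its lower reactions Gapdh1 (glyceraldehyde phosphate dehydrogenase), Pgk (phosphoglycerate kinase), Pglym78 (phosphoglycerate mutase) and Eno (enolase) carry the trioses to phosphoenolpyruvate, and Pyk makes pyruvate from it. In Drosophila embryos the nuclear receptor ERR is known to switch on most genes of the pathway in the middle of embryogenesis, ahead of larval growth.

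Each line was sampled with 2 RNA extractions at each time, 1 Affymetrix array for each, which made 36 arrays. The lines are named Drosophila_17, Drosophila_23, Drosophila_58, Drosophila_75, Drosophila_83, Drosophila_89, Drosophila_128, Drosophila_134 and Drosophila_145; the labels give no treatment, sex, genotype or origin for them, nor the number of embryos in a sample or the temperature at which they were kept. One array at 5 h has a title that names no line and entered no comparison, so Drosophila_17 had 1 array at 5 h and every other line and time had 2. Nothing in the labels says whether the 2 extractions came from separate collections of embryos, so the tests among lines measure a spread that may be technical.

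Intensities are given after quantile normalisation, differences are on the scale of log2(intensity + 16), which understates changes of dim probe sets, and adjusted p-values are from limma with Benjamini-Hochberg adjustment over all 18769 non-control probe sets. A probe set counted as measured where it stood above the 99th percentile of the 50 negative controls on at least 18 arrays. All 9 of the glycolysis probe sets were measured, from 30 of 36 arrays for Tpi and Pgk to 36 of 36 for Eno and the brighter Ald1 probe set. Levels of different probe sets are not compared, and in whole embryos fewer cells that use a gene cannot be told apart from less RNA per cell.

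The arrays differed in brightness and in RNA quality. The summed deposited intensity ranged between 68984 and 309710 over the 17 arrays of named lines at 5 h and between 46261 and 266525 over the 18 of 8 h. The log2 ratio of the 3′ to the 5′ control probe set of eIF-4a, which rises as RNA or labelled product gets shorter, had a median of 3.54 (2.50 to 6.37) at 5 h and 4.52 (3.21 to 7.01) at 8 h. Its line mean was higher at 8 h in 8 of 9 lines. Such ratios had medians at 5 h and 8 h of 2.25 and 3.32 for actin, 4.33 and 4.65 for Act5C, and 1.17 and 1.77 for GAPDH. They did not set lines apart alike. In Drosophila_134 the GAPDH ratio was 6.01 and 0.89, then 2.12 and 1.46, and the actin ratio 3.18 and 8.21, then 5.49 and 2.88. Only the eIF-4a ratio was used as a covariate. Drosophila_75 had total intensities from 212329 to 266525 and eIF-4a ratios from 2.71 to 3.54. Drosophila_134 had totals from 46261 to 110030 and eIF-4a ratios from 4.74 to 7.01. Drosophila_89 at 5 h held the brightest array and the lowest eIF-4a ratio. These values are set beside the results they move with.

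Gapdh1 and Eno, both of the lower pathway, fell from 5 h to 8 h, and no glycolysis gene rose by the probe set that stood for it. The fall passed the test in 2 of 8 genes, where 3.67% of all probe sets and 10.6% of measured ones fell, a small count against that background. No gene rose at the adjusted threshold, where 3.85% of all probe sets did. At an unadjusted p under 0.05, 4 of 8 genes were lower, beside 24.1% of measured probe sets, and 0 of 8 were higher, beside 17.2%. The second Ald1 probe set, which is not counted here, was higher in limma (unadjusted p = 0.0051, adjusted p = 0.061). The median change of the 8 genes was -0.15, beside 0 for all probe sets and -0.03 for measured ones.

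Gapdh1, which oxidises glyceraldehyde phosphate, read between 8.40 and 82.4 at 5 h (median 27.1, 17 arrays) and between 2.79 and 48.7 at 8 h (median 13.3, 18 arrays). The ranges overlapped widely. Over line means it went from 32.6 ± 19.0 to 19.1 ± 12.9 (SD, n = 9), a log2 change of -0.47 ± 0.12 (SE, adjusted p = 0.017). It fell in 8 lines and not in Drosophila_83, where the pair of arrays read 23 and 12.6 at 5 h and 26.6 and 29.2 at 8 h. In Drosophila_89 the change alone passed the test, at -1.03 (adjusted p = 0.037), with 58.3 and 82.4 at 5 h against 13.3 and 43.7 at 8 h. Drosophila_17 went from 34.2 on its single array to 7.58 and 5.79 (log2 change -1.15, adjusted p = 0.068).

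Eno, which makes phosphoenolpyruvate, read between 14.6 and 147 at 5 h (median 64.9) and between 4.72 and 132 at 8 h (median 32.6). Here too the times overlapped. Line means were 66.4 ± 40.3 at 5 h and 42.1 ± 36.3 at 8 h (SD, n = 9), a log2 change of -0.55 ± 0.14 (SE, adjusted p = 0.02). Eno fell in the same 8 lines as Gapdh1. The change passed by itself in Drosophila_17, from 64.9 to 18.3 and 12.8 (-1.36, adjusted p = 0.044), and in Drosophila_23, from 38.0 and 69.8 to 20.3 and 4.72 (-1.31, adjusted p = 0.013). In both lines every array at 8 h lay below every array at 5 h.

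Both calls lay near the threshold and were lost in smaller sets of arrays, where the changes kept most of their size. For Eno the change was -0.45 without Drosophila_17 (adjusted p = 0.066) and -0.46 without Drosophila_23 (0.069). For Gapdh1 it was -0.39 (0.058) and -0.44 (0.048). With RNA sample 1 or 2 of each line left out, Eno changed by -0.51 (0.16) and -0.52 (0.077) and Gapdh1 by -0.46 (0.072) and -0.41 (0.13). The fits with a covariate took single arrays as the unit, so that extractions that may be technical counted as replicates of a time. Their p-values are therefore not set against those over line means. With single arrays and no covariate Eno changed by -0.52 (adjusted p = 0.0027) and Gapdh1 by -0.44 (0.0036). With brightness as a covariate the change of Eno was -0.34 (adjusted p = 0.24) and that of Gapdh1 -0.25 (0.36). With the 3′ to 5′ ratio as the covariate it was -0.41 (0.043) for Eno and -0.33 (0.068) for Gapdh1. On the deposited scale, where the median measured probe set fell by 0.19 and 2948 probe sets fell against 328 that rose, Eno changed by -0.98 and Gapdh1 by -0.78, and 6 of the 8 genes fell.

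Separate control probe sets named for GAPDH, kept out of all tests, give another reading of that enzyme's transcript in deposited intensity, though their name does not say which of the genes they match. The control over the middle of the transcript lay between 0.951 and 105 at 5 h; at 8 h it lay between 0.0697 and 73.2. Its line mean was lower at 8 h in 8 of 9 lines, the exception being Drosophila_134 (1.62 and 3.46), which was lowest of the lines at 5 h. On this scale the arrays were also dimmer at 8 h, with a median total of 124674.5 against 182362 at 5 h. There 2948 probe sets fell against 328 that rose. The lowest reading of this control at each time lay below the limit set by the negative controls. Drosophila_75 (79.9 and 60.4) and Drosophila_89 (86.6 and 31.7) were the highest pair at both times.

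**Figure D1:**
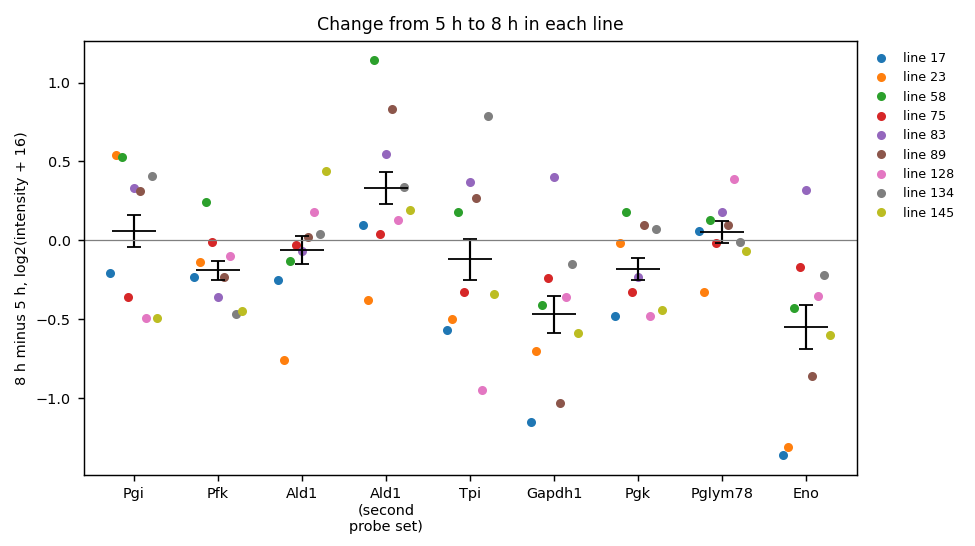
Change from 5 h to 8 h of each glycolysis probe set in each of the 9 lines, on the log2(intensity + 16) scale, with 1 dot a line and the black bars giving the mean over lines and its SE. Eno and Gapdh1 lie below 0 in 8 of 9 lines, Drosophila_17, Drosophila_23 and Drosophila_89 lie far down for at least one of them, and the lines spread to both sides of 0 for Pgi, Tpi and Pglym78.

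The other 6 genes did not pass the test for time. The second Ald1 probe set, described below, came closest, with a rise of 0.33 (adjusted p = 0.061). Pfk, the commitment step, came next. It read from 2.79 to 10.9 on the arrays at 5 h (median 8.65) and from 0.886 to 12.5 at 8 h (median 4.23). Its log2 change was -0.19 ± 0.06 (adjusted p = 0.068), with lower values at 8 h in 8 lines. Drosophila_58 was the exception, at 2.84 and 2.79 against 4.16 and 8.66. Drosophila_134 had the one line change of Pfk that passed (-0.47, adjusted p = 0.047), from 8.19 and 8.65 to 0.886 and 2.44, both of the latter below the background limit.

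Pgk, which makes ATP from bisphosphoglycerate, had line means of 11.6 ± 5.84 and 8.34 ± 5.13 (log2 change -0.18 ± 0.07, adjusted p = 0.16) and was lower at 8 h in 6 lines. Tpi had 23.6 ± 17 and 20.9 ± 15.8 (-0.12 ± 0.13, adjusted p = 0.69). The brighter Ald1 probe set had 18.7 ± 3.59 and 17.6 ± 6.25 (-0.06 ± 0.09, adjusted p = 0.79). For Tpi and Ald1 the lines split 5 to 4 in direction. Pgi had 11.5 ± 6.58 and 12.7 ± 6.14 (0.06 ± 0.10, adjusted p = 0.81) and Pglym78 10.9 ± 1.88 and 11.9 ± 3.62 (0.05 ± 0.07, adjusted p = 0.77), each higher at 8 h in 5 lines.

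**Figure D2:**
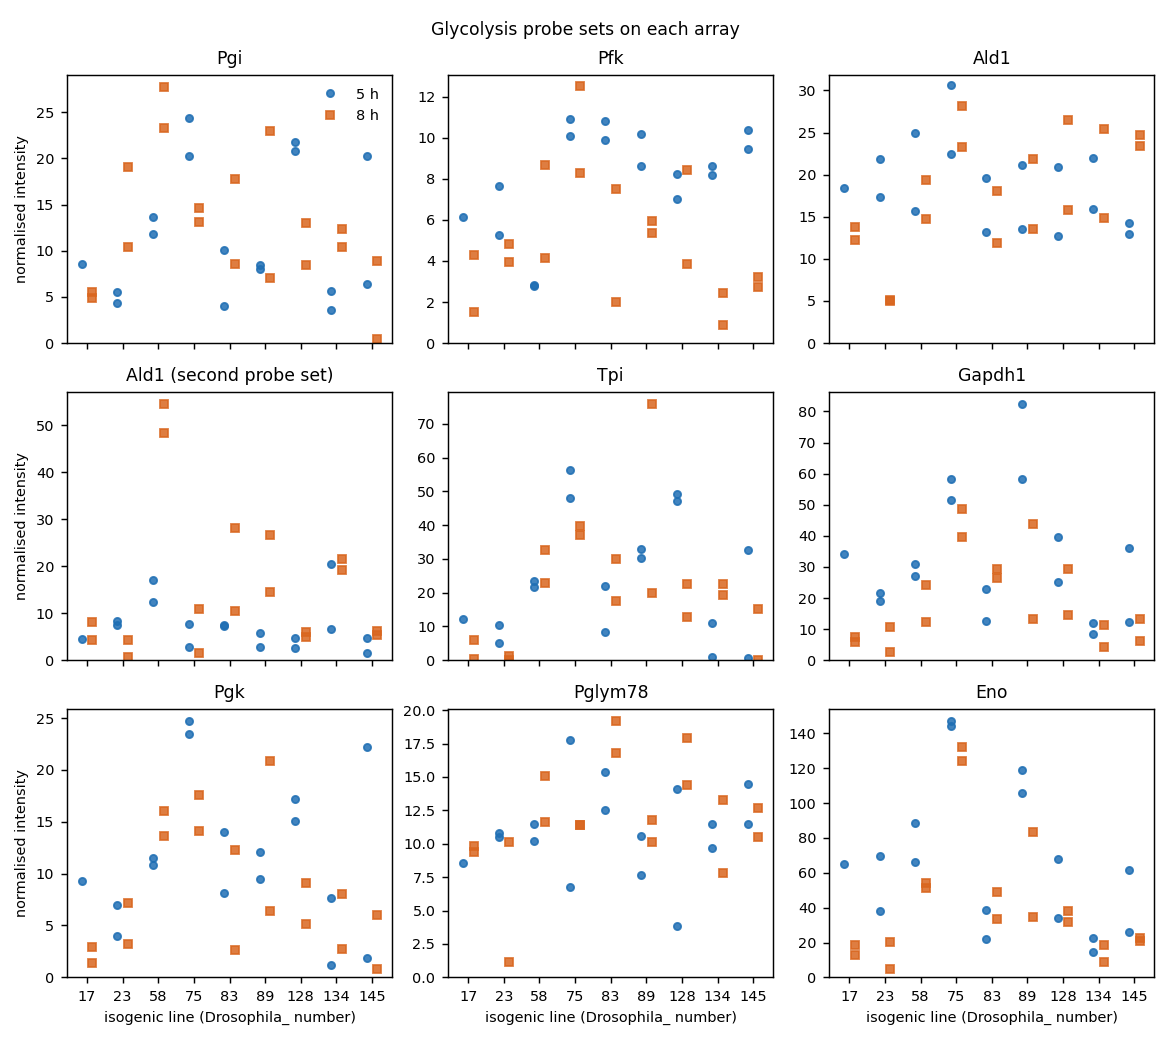
Quantile-normalised intensity of each glycolysis probe set on every array with a named line, by line, with blue circles for 5 h and orange squares for 8 h. Eno, Gapdh1 and Pgk stand high in Drosophila_75 at both times, Drosophila_58 at 8 h stands alone on the second Ald1 probe set, and the 2 arrays of Drosophila_145 lie far apart for Tpi and Pgk.

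More of the glycolysis genes passed the test among lines than the test for time, as did more probe sets over the whole array. The tests differ in unit, single arrays for lines and means of line and time for time. On such means, a model of line plus time called 4 of 8 genes for lines and 5.41% of all probe sets. Eno, Tpi and Gapdh1 had the widest spans between the highest and lowest line, and Drosophila_75 was the highest line for 6 of the 8 genes. Set against the mean of the other 8 lines, Drosophila_75 was higher at the adjusted threshold for 6 genes. It was so for 4.07% of all probe sets and 11.7% of measured ones, the largest measured share of any line. The moderated F test among lines over both times was passed by 6 of 8 genes, Pgi, Pfk, Tpi, Gapdh1, Pgk and Eno, where 19.5% of all probe sets and 51.4% of measured ones passed. That count is not far from the share of measured probe sets. The median span was 0.70 for the 8 genes, 0.13 for all probe sets and 0.41 for measured ones. Within 5 h 4 of 8 genes passed (7.45% of all probe sets) and within 8 h 6 of 8 (18.4%). All 8 genes were measured but most probe sets were not, so shares over all probe sets make a low background here. Within a time the share over measured probe sets was not computed.

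Eno spanned 2.26 on the log2 scale, from 7.25 in Drosophila_75 to 4.99 in Drosophila_134 (adjusted p = 2.4e-08, with 4.6e-05 at 5 h and 3.5e-06 at 8 h). Drosophila_75 read 147 and 144 at 5 h and 124 and 132 at 8 h, above every other array of its time. Drosophila_134 read 22.5 and 14.6, then 18.5 and 9.06. Each of the 9 lines was also set against the mean of the other 8. Over all 18769 probe sets, of which 6183 were measured, 3.77% of such differences passed, and the share over measured ones was not computed. Over all 8 genes, 15 of 72 such differences passed.

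For Eno 4 of them passed: Drosophila_75 was higher by 1.5 ± 0.16 (SE, adjusted p = 1.4e-07) and Drosophila_89 by 0.74 (0.0042), while Drosophila_134 differed by -1.04 (6.1e-05) and Drosophila_23 by -0.55 (0.048). Among neighbours in the order of lines, 3 gaps were beyond 2 SE: Drosophila_75 over Drosophila_89 (0.67), Drosophila_58 over Drosophila_128 (0.48) and Drosophila_23 over Drosophila_134 (0.44). The other neighbours did not differ beyond their error.

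The lines at the ends of the order of Eno were also those at the ends of brightness and of the eIF-4a 3′ to 5′ ratio. The part of these in the result was not fully tested. The span stayed called in 24 of 24 alternatives, but its size moved: 1.94 with the 3′ to 5′ ratio as a covariate (adjusted p = 0.00017), 1.43 with brightness (0.00066), 1.40 with both (0.0019) and 0.89 without Drosophila_75, Drosophila_89 and Drosophila_134 (0.036). Between the 2 arrays of the same line and time the brighter one read higher in 10 of 17 pairs, and so did the one with the lower 3′ to 5′ ratio, beside 9 of 17 for the median measured probe set.

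**Figure D3:**
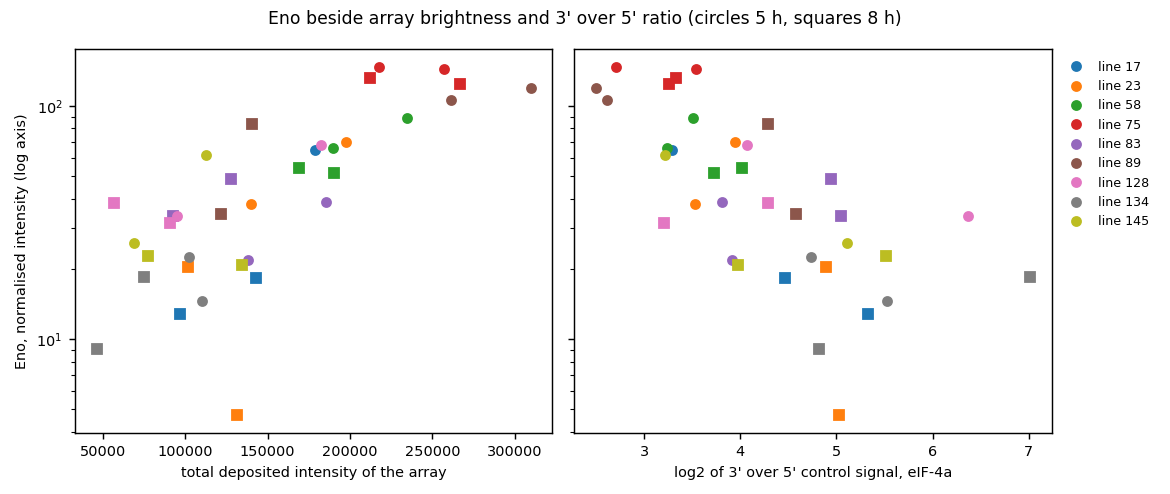
Normalised intensity of Eno (log axis) on each array with a named line against the array's total deposited intensity (left) and against the log2 ratio of the 3′ to the 5′ eIF-4a control (right), coloured by line, circles for 5 h and squares for 8 h. Arrays of Drosophila_75 and of Drosophila_89 at 5 h are bright, have low ratios and read high, and those of Drosophila_134 are dim, have high ratios and read low.

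Gapdh1 followed the same lines. It spanned 1.39, from 6.03 in Drosophila_75 to 4.63 in Drosophila_134 (adjusted p = 5.8e-06). Drosophila_75 read 58.3 and 51.4 at 5 h and 39.6 and 48.7 at 8 h, and Drosophila_134 read 12.0 and 8.40, then 11.4 and 4.21, so these lines did not overlap. Drosophila_75 (0.86, adjusted p = 0.00024) and Drosophila_89 (0.72, 0.002) were above the other lines and Drosophila_134 (-0.71, 0.0022) below them. One gap between neighbours was beyond 2 SE, Drosophila_89 over Drosophila_128 (0.50). The span was 0.97 with the 3′ to 5′ ratio as a covariate and 0.85 with brightness, both still called, and 0.57 without Drosophila_75, Drosophila_89 and Drosophila_134 (adjusted p = 0.15). In a model of line plus time without RNA sample 2 of each line it was 1.24 (adjusted p = 0.11).

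Tpi spanned 1.62, from 5.93 in Drosophila_75 to 4.31 in Drosophila_23 (adjusted p = 1.8e-05). Drosophila_75 read 56.4 and 48.2, then 37.0 and 39.7. Drosophila_23 read 10.4 and 5.00 at 5 h and, below the background limit on both arrays, 1.13 and 0.208 at 8 h, so its low end is a bound rather than a level. Drosophila_75 (0.92, adjusted p = 0.0017) and Drosophila_89 (0.68, 0.027) were above the other lines and Drosophila_23 (-0.90, 0.0024) below. No neighbours in the order differed beyond 2 SE.

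Repeat extractions of Tpi could lie far apart. In Drosophila_145 the pairs read 32.6 and 0.713 at 5 h and 15.3 and 0.184 at 8 h, and in Drosophila_89 at 8 h 20 and 75.8. Pgk showed the same in Drosophila_145, with 22.2 and 1.86, then 6.02 and 0.845. Of the 17 pairs of arrays, the array with the lower 3′ to 5′ ratio read higher for Tpi in 14 pairs, against 9 for the median measured probe set; this was not tested further. The span of Tpi was 1.27 with that ratio as a covariate and 1.22 without Drosophila_75, Drosophila_89 and Drosophila_134, both called.

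The remaining line differences were smaller. Pgk spanned 0.79, highest in Drosophila_75 (24.7 and 23.5, then 14.1 and 17.6), which was 0.57 above the other lines (adjusted p = 0.005 for that line and 0.0052 among all lines). Pgk in Drosophila_17 at 8 h lay below the background limit on both arrays (1.39 and 2.90). Pgi spanned 0.60 (adjusted p = 0.0081), highest in Drosophila_58, with 13.7 and 11.8 at 5 h and 23.3 and 27.7 at 8 h, the pair of highest arrays at 8 h. That line was 0.38 above the others (adjusted p = 0.046), while at 5 h Drosophila_75 (20.2 and 24.4) and Drosophila_128 (21.8 and 20.8) had the highest line means.

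Pfk spanned 0.37 (adjusted p = 0.036), with Drosophila_75 higher by 0.28 (0.014), and the call was lost without Drosophila_75 (span 0.20, adjusted p = 0.49), Drosophila_58 (0.083) or Drosophila_134 (0.054). The span of Pgk was likewise 0.48 (adjusted p = 0.17) without Drosophila_75, and Pgi had an adjusted p of 0.068 without Drosophila_58. The calls for these 3 genes were also lost with either covariate. The spans with the 3′ to 5′ ratio were 0.55 for Pgi (adjusted p = 0.068), 0.35 for Pfk (0.13) and 0.65 for Pgk (0.16), and with brightness 0.59 (0.07), 0.41 (0.095) and 0.59 (0.19), so that those of Pgi and Pfk kept about their size. Pglym78 varied least in its test, with a span of 0.43 (adjusted p = 0.32), and no line passed against the others. On the deposited scale and with arrays centred on their medians it passed, with spans of 0.70 (adjusted p = 0.00098) and 0.66 (0.0017).

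**Figure D4:**
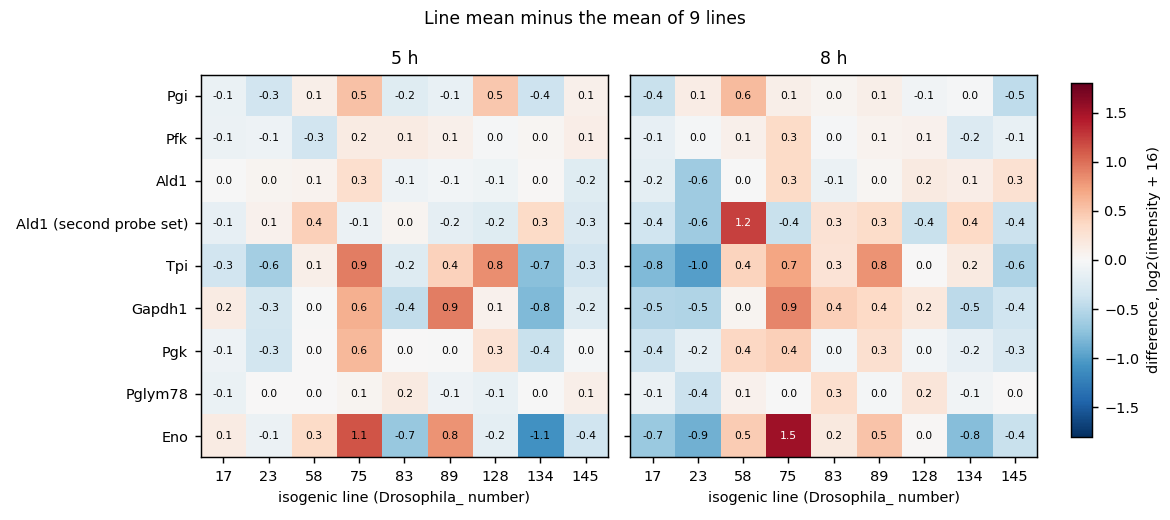
Mean of each line minus the mean of the 9 lines for each glycolysis probe set, on the log2(intensity + 16) scale, at 5 h (left) and 8 h (right), red above and blue below. The column of Drosophila_75 is red for Tpi, Gapdh1, Pgk and Eno at both times, Drosophila_134 is blue for Gapdh1 and Eno at both times, and the second Ald1 probe set has its one deep red cell in Drosophila_58 at 8 h.

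Maternal transcripts, which the egg supplies and the embryo later clears, differed among lines as well. Of a list of 12, 10 had a probe set and 9 were measured. From 5 h to 8 h 5 fell, beside 3.67% of all probe sets and 10.6% of measured ones. Among lines 10 differed, beside 19.5% and 51.4%. Their mean log2 level at 5 h was 6.13 in Drosophila_75 and 6.19 in Drosophila_89, the highest, and 4.99 in Drosophila_134, the lowest. At 8 h it was 6.08 in Drosophila_75 and 4.62 in Drosophila_134. The transcript of dhd, a maternal thioredoxin, spanned 3.48 from Drosophila_75 to Drosophila_134 (adjusted p = 0.00013), and Hsp26, a heat shock gene loaded into the egg, 2.21 from Drosophila_89 to Drosophila_134 (8.3e-06). Other members followed other lines: plu was highest in Drosophila_17, pum in Drosophila_145, and bcd, plu, pum and smg were lowest in Drosophila_58.

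Developmental progress was scored as the mean of 200 probe sets that rise most minus 200 that fall most. These were chosen by their change between the times in the other lines. At 8 h the score was lowest in Drosophila_75 (-0.77) and highest in Drosophila_134 (1.11), with Eno log2 levels of 7.17 and 4.88. At 5 h the same lines scored -1.1 and -0.92, with Eno already at 7.33 and 5.1. Drosophila_58 and Drosophila_17 scored 0.88 and -0.32 at 8 h, with Eno at 6.1 and 4.97, against the order of those extremes. The part of maternal RNA and of stage in the differences of Eno, Gapdh1 and Tpi was not tested. Of 5 germ cell genes 4 had a probe set, and 3 fell and 3 differed among lines. Of 12 muscle genes 8 had one, of which 4 rose, none fell, and 6 differed among lines. For both lists the shares over all probe sets were 3.67% fallen, 3.85% risen and 19.5% differing among lines. Over measured probe sets they were 10.6% fallen and 51.4% differing among lines. The mean log2 level of the muscle genes at 8 h was highest in Drosophila_134 (5.66), Drosophila_83 (5.53) and Drosophila_89 (5.47) and lowest in Drosophila_128 (4.16).

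Whether lines differed in their change with time was tested as the difference itself. Of the 8 genes, 0 passed this line-by-time test in limma, beside 1.37% of all probe sets, and limma's adjusted p was 0.065 for Pgi (0.029 without Drosophila_89). At an unadjusted p under 0.05 it was 6 of 8, beside 26.5% of measured probe sets. Of single lines' changes, 5 of 72 passed, beside 1.92% over all probe sets, most of which were not measured. These 5 were those of Eno, Gapdh1 and Pfk above, and the brighter Ald1 probe set in Drosophila_23. There the arrays went from 17.4 and 21.9 to 5.14 and 4.96 (log2 change -0.76, adjusted p = 0.022), the lowest pair of any line.

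That Ald1 probe set spanned 0.62 among lines over both times and missed the threshold (adjusted p = 0.051, and between 0.021 and 0.44 with 1 line left out), with 0.80 at 5 h and 0.0047 at 8 h. Drosophila_75 was above the others (0.36, adjusted p = 0.03) and Drosophila_23 below (-0.33, 0.049).

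The second Ald1 probe set followed other lines than the one that represents the gene. At 5 h it read between 1.5 and 20.4 (median 6.72) and at 8 h between 0.597 and 54.5 (median 9.38). Its highest arrays at 8 h were the pair of Drosophila_58, at 48.3 and 54.5. By line mean Drosophila_89 (26.6 and 14.6), Drosophila_134 (21.5 and 19.3) and Drosophila_83 (10.5 and 28.2) came next. In the other 5 lines the 8 h mean was between 2.43 and 6.22. The log2 change over lines was 0.33 ± 0.10 (adjusted p = 0.061), higher at 8 h in 8 of 9 lines.

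Drosophila_58 rose by 1.14 (adjusted p = 0.0013) and Drosophila_89 by 0.83 (0.024), and this was the one glycolysis probe set of 9 that passed the line-by-time test (adjusted p = 0.045). Its F of 4.79 fell to 3.36 without Drosophila_23 (adjusted p = 0.23) and to 2.94 without Drosophila_58 (0.32). Without Drosophila_89 or Drosophila_145 the F was no lower, at 4.83 (0.054) and 5.10 (0.05), but the call was also lost. Among lines it spanned 1.16 (adjusted p = 7.7e-07), with 0.17 at 5 h and 3.9e-07 at 8 h, Drosophila_58 standing 0.94 above the other lines (8.1e-07) and Drosophila_134 0.39 above (0.038). The span was called in 23 of 24 alternatives and not without RNA sample 2 of each line (1.11, adjusted p = 0.092).

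Over the 18 means of line and time, with each time's mean removed, the 2 Ald1 probe sets correlated at r = 0.17. At 8 h Drosophila_75 had the highest line mean on the brighter probe set (28.1 and 23.3) but low on the second (1.46 and 10.9). The brighter one stood above the limit on 36 arrays and the second on 32. The transcripts of Ald1 that each probe set matches were not examined.

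The genes varied together to different degrees. Over the same 18 means, the 28 pairs of the 8 genes had a median r of 0.46 (from -0.01 to 0.93), and 10 pairs were above 0.5; the median over pairs of measured probe sets was 0.01. Eno and Gapdh1 were closest (0.93), followed by Tpi and Pgk (0.88) and by Pgi and Pgk (0.85). Pglym78 correlated with none of the others above 0.44. These points share arrays, brightness and RNA quality, so the values describe the libraries as well as the genes.

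Among 5203 measured genes, those most like Eno were Lsd-2, a lipid droplet perilipin (0.95), and CG8180 (0.95). Those most like Gapdh1 were Jabba, a lipid droplet protein that holds histones in the embryo (0.95), and Scox (0.94). Got2, an aspartate aminotransferase, was most like Pgk (0.90), followed by CG14545 (0.89), and Vha13, a subunit of the vacuolar proton pump, most like Tpi (0.88), with Ipk2, an inositol phosphate kinase, at 0.88. For Pgi these were da, a helix-loop-helix factor (0.85), and CG4679 (0.81), and for Pfk CG2076 (0.83) and DCTN1-p150, a dynactin subunit (0.77). For the second Ald1 probe set, added after its values were seen, they were lncRNA:mimi (0.94) and serp, a chitin deacetylase of the tracheal matrix (0.94).

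Counts in the metabolic and regulator lists below stand beside shares over all probe sets of 3.67% fallen, 3.85% risen and 19.5% differing among lines. Over measured probe sets the shares were 10.6% fallen and 51.4% differing among lines. Most of the hexokinases and paralogs lay at background. Of 13 hexokinases and paralogs of the members, 12 had a probe set but 2 were measured, Hex-A, the main hexokinase, and Pfrx, which makes an activator of Pfk. Neither passed the test for time, and Hex-A differed among lines (span 0.65, adjusted p = 0.0047), highest in Drosophila_145 and lowest in Drosophila_89. The other 10 were above the limit on 0 to 2 of 36 arrays, Pglym87, Hex-C and Hex-t1 each on 1.

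Glycogen and trehalose genes moved in both directions. Of 9 listed, 7 had a probe set. AGBE, the glycogen branching enzyme, fell (9.47 ± 2.78 to 4.60 ± 3.46, log2 change -0.32 ± 0.06, adjusted p = 0.00075), as did Pgm1, phosphoglucomutase (13.2 ± 4.41 to 8.77 ± 5.78, -0.26 ± 0.06, 0.015). Tps1, which makes trehalose, rose from 1.62 ± 1.78 to 5.07 ± 2.64 (0.25 ± 0.05, adjusted p = 0.0018). Among lines 4 of 7 differed, beside 51.4% of measured probe sets. The widest were CG9485 (0.73, adjusted p = 0.0015) and Pgm1 (0.70, 3.5e-06), both highest in Drosophila_75.

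Of 10 listed genes of the branches around triose phosphate and pyruvate, 8 had a probe set, and all 8 of these were measured and differed among lines, beside the 51.4% of measured probe sets. Mdh1, the cytosolic malate dehydrogenase that recycles NADH, fell in 9 of 9 lines (68.1 ± 17.2 to 42.3 ± 19.7, log2 change -0.58 ± 0.12, adjusted p = 0.0038). Men, malic enzyme, rose from 6.96 ± 2.64 to 13.8 ± 5.30 (0.36 ± 0.07, adjusted p = 0.0038), and the gluconeogenic Pepck1 (0.35 ± 0.10, 0.027) and Pepck2 (0.27 ± 0.06, 0.0071) rose too.

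By line, Mdh1 (span 1.27, adjusted p = 6.2e-05) and the glycerol phosphate dehydrogenase Gpdh1 (1.21, 7.1e-05) were highest in Drosophila_75 and lowest in Drosophila_134, as Eno and Gapdh1 were. Pepck1 (1.10, 8.5e-08) was highest in Drosophila_58 and lowest in Drosophila_75.

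In the pentose phosphate pathway 5 of 8 listed genes had a probe set and 4 were measured. Rpe, which epimerises ribulose phosphate, fell in 9 of 9 lines (36.8 ± 4.72 to 24.7 ± 7.44, log2 change -0.40 ± 0.10, adjusted p = 0.012). Among lines 3 of 5 differed, beside 51.4% of measured probe sets: the transketolase CG8036 (0.97, 0.00012), Rpi (0.94, 6e-08) and Taldo (0.70, 9.9e-05). Of 23 genes of pyruvate dehydrogenase and the tricarboxylic acid cycle, 17 had a probe set and 16 were measured. CG5214 fell (16.2 ± 3.46 to 10.3 ± 4.54, -0.30 ± 0.08, adjusted p = 0.022) and none rose. Among lines 10 of 17 differed, a count not far from the 51.4% of measured probe sets. The widest were PCB, pyruvate carboxylase (0.95, 4.9e-06), Scsalpha1 (0.95, 0.0016) and Pdk, the kinase of pyruvate dehydrogenase (0.81, 0.0038).

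Among 9 sugar transporters 8 had a probe set and 2 were measured. The trehalose transporter Tret1-1, above the limit on 16 of 36 arrays, rose from 1.95 ± 1.19 to 4.99 ± 3.94 (0.21 ± 0.05, adjusted p = 0.018), and Tret1-1 (0.54, 3.8e-05) and sut1 (0.47, 0.02) differed among lines. Of 8 regulators 7 had a probe set and 5 were measured. None passed the test for time, in either direction. ERR lay near background at both times, at 1.66 ± 0.845 and 2.08 ± 1.26, above the limit on 16 of 36 arrays (log2 change 0.03 ± 0.04, adjusted p = 0.73). Among lines 3 of 7 differed, beside 19.5% of all probe sets and 51.4% of measured ones. They were Hph, the oxygen-sensing prolyl hydroxylase (span 1.01, adjusted p = 2e-08), tgo (0.62, 0.0024) and sug (0.42, 0.0038). Of these, sug was above the limit on 14 of 36 arrays and did not count as measured.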

How the data were processed

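Total RNA of whole embryos was labelled with biotin and read on 36 Affymetrix arrays, per the labels' protocols. The deposited values are intensities, 1 for each probe set and array, as the authors' files give them; no source used here gives the software or the scaling behind them. Gene names came from the annotation of the platform and were updated with RefSeq: 13647 of 18769 non-control probe sets had 1 symbol, 402 several and 4720 none, and 13544 of the first matched RefSeq. Control probe sets (183) were left out.

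Intensities were quantile normalised over all arrays and turned to log2(intensity + 16); 91.3% of normalised values lay under that pseudocount. Time was tested with limma 3.58.1 (R 4.3.3; lmFit, eBayes with trend) on 18 means of line and time with line as a block (8 residual degrees of freedom). Lines were tested on the 35 arrays of named lines with 1 coefficient per group of line and time (17 residual degrees). The threshold was an adjusted p of 0.05. Contrasts of single lines were adjusted over all probe sets and all 9 contrasts together. Where a gene had several probe sets, the one with the highest mean stood for it. The precision is limited by the number of arrays.

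All probe sets of the member genes are named; the maternal, muscle and germ cell lists are given by counts and means, with dhd and Hsp26 named by rule and 4 other maternal genes chosen after their values were seen. Of the neighbouring metabolic and regulator lists, genes called for time and at most 3 called for lines with the widest span are named, and for each member called for lines the 2 measured genes of highest Pearson r. The members and lists were chosen with earlier results of these data known. Sample letters A and B of a line did not pair across times (r of their differences from -0.39 to 0.28 in 8 lines). The scripts were tested on simulated data. Alternatives covered scaling, pseudocount, filters, single lines and samples left out, and covariates for brightness and for the 3′ to 5′ ratio.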

Additional observations from a re-analysis of the deposited data

Results flagged for a closer look

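The change of the second Ald1 probe set from 5 h to 8 h differed among the 9 lines by limma's line-by-time test (adjusted p = 0.045). It rose most in Drosophila_58 (1.14) and Drosophila_89 (0.83) and differed by -0.38 in Drosophila_23, where it did not pass (adjusted p = 0.54). The call was lost under 12 of 21 alternatives. No line lay apart from the other 8 by Dixon's test in any of 18 sets of line means (9 probe sets at 2 times), where chance gives 0.9.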

How the results depend on the processing

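Of 630 values of single probe sets under an alternative, 524 kept their direction and side of the threshold, 54 lost and 43 gained a call, and 9 changed sign, none of these 9 past the threshold in either setting. The count of genes fallen with time was 2, and 6 on the deposited scale and with arrays centred on medians. With single arrays as the unit it was 3 with no covariate, 1 with the 3′ to 5′ ratio as a covariate, and 0 with brightness or with both. Over line means, leaving out a line or a sample gave 0 to 3. The count was 0 without RNA sample 1 or 2 of each line or without Drosophila_17, and 1 without Drosophila_23. Risen genes stayed at 0 (0 to 0 when a line or sample was left out) by the probe set that stood for each gene. The rise of the second Ald1 probe set gained a call in 9 of 25 alternatives. Among these were scaling to the 90th percentile (0.34, adjusted p = 0.033) and leaving out Drosophila_23 (0.42, 0.015). The count for lines over both times was 6, and 8 on the deposited scale and centred, and 3 with either covariate, with both, and without Drosophila_75, Drosophila_89 and Drosophila_134 (2 to 7 when a line or sample was left out). At 5 h it was 4, and 7 on the deposited scale and centred, 2 without Drosophila_75 and Drosophila_89, and 0 without those and Drosophila_134 (3 to 5 with 1 line out); at 8 h it was 6, and 8 on the deposited scale and centred (5 to 7 with 1 line out). The line-by-time count was 0, and 1 when scaled to the 90th percentile, filtered to measured probe sets, with brightness or with the other Ald1 probe set, and 2 with the 3′ to 5′ ratio or both covariates (0 to 1 with 1 line out). Sign changes were Pgi -0.17 and Pglym78 -0.20 on the deposited scale, -0.16 and -0.19 when centred, Tpi 0.05 without RNA sample 1, Ald1 0.02 without Drosophila_23 and 0.01 with the 3′ to 5′ ratio, and Ald1 0.03 and Tpi 0.02 with both covariates. With lines or samples left out, Ald1 ranged from -0.12 to 0.02 and Tpi from -0.28 to 0.05. The cause of these shifts was not tested.

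With the sample letter as a replicate block on single arrays, 3 genes fell, Pfk joining (-0.19, adjusted p = 0.012), 7 differed among lines, and the second Ald1 probe set no longer passed the line-by-time test (F = 4.68, adjusted p = 0.05). Without a whole RNA sample the model with a mean for each line and time has no residual degrees of freedom, so the tests within a time and line by time were not run there. A model of line plus time, added after the data were seen, called 4 genes for lines with all samples, 4 without RNA sample 1 (Tpi, Gapdh1, Pgk and Eno in both) and 2 without RNA sample 2 (Tpi and Eno); it called 5.41%, 3.27% and 1.86% of all probe sets. The fits with the 3′ to 5′ ratio and without Drosophila_75, Drosophila_89 and Drosophila_134 together were chosen after the data were seen. In the tests among lines, the slopes of the covariate fits rest on differences between the 2 RNA samples of a line and time. The covariate fits for time took single arrays as the unit, with line as a block. Their slopes therefore also rest on how the difference between times varied among lines. With single arrays as the unit and no covariate, 3 genes fell. Dim probe sets limit Tpi, Pgk and Pfk, each below background on both arrays of 1 line at 8 h.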

Other observations

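The array at 5 h whose title names no line read 47.8 for Eno, 17 for Gapdh1, 4.73 for Tpi, 6.80 for Pgk, 6.40 for Pgi, 9.57 for Pfk and 11.7 for Pglym78, each within the range of the named lines at 5 h. The brighter Ald1 probe set read 10.1, below the lowest of the other 17 arrays (12.7), and the second read 5.16. Its total intensity was 104042 and its log2 3′ to 5′ ratio of eIF-4a 3.78.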
